A study of Mus musculus with 8 samples.

Results

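The long noncoding RNAs *Malat1*, *Neat1*, *Miat*, *Snhg11*, *Rmst*, *Pantr1*, *Sox2ot* and *Gas5* were examined in the spinal cord of Nfix-/- mouse embryos and of wild-type (Nfix+/+) embryos at E14.5, in mid-gestation. Members were taken by name alone: an array row had to carry 1 gene symbol equal to that of a member. Of the 8 genes, 4 met this (*Malat1*, *Neat1*, *Miat* and *Snhg11*), out of 30738 genes with a row of their own. The rows of *Rmst* and *Pantr1* carried a second, older name that RefSeq gives to the same gene, and these 2 genes are described beside the 4. The rows of *Sox2ot* and *Gas5* were shared with small RNA genes (a microRNA and, for *Gas5*, also a small nucleolar RNA), so they could not be told apart from them and are not described. Each of the 6 genes had a single row.

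The deposited series holds 4 Nfix-/- and 4 Nfix+/+ arrays, labelled as biological replicates 1 to 4, and all were compared here. The study's text gives fewer mice per genotype than that. Per the study, whole spinal cords were taken from embryos of matings of heterozygous mice on a C57Bl/6J background. *Nfix* encodes Nuclear Factor One X, a transcription factor of neural stem cells, and its loss is the only difference between the groups that the labels give. Whole cords hold neurons, progenitors, glia, vessels and coverings, so fewer cells of a type cannot be told apart from less RNA per cell. Each array gave 1 log2 signal for each transcript cluster (the probes designed against 1 stretch of transcribed sequence), and 65956 clusters were tested.

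Long noncoding RNAs are transcripts that are not translated into a protein, and many of them stay in the nucleus. *Malat1* RNA gathers in nuclear speckles, bodies rich in splicing factors, while *Neat1* RNA is the scaffold of paraspeckles, bodies that hold RNA-binding proteins such as NONO and SFPQ. *Miat* (also Gomafu) forms nuclear spots of its own in neurons and binds splicing factors. *Rmst* is transcribed in the nervous system, where its human counterpart binds the progenitor factor SOX2, and *Pantr1* lies beside the neural gene *Pou3f3*. *Snhg11* carries small nucleolar RNAs in its introns.

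*Nfix* was lower in the Nfix-/- arrays, at 8.90, 8.88, 8.83 and 8.81, against 9.36, 9.18, 9.25 and 9.19 in the Nfix+/+ arrays. The groups did not overlap, and the log2 difference was -0.39 (standard error 0.0544, adjusted p = 0.00240 from limma). A cluster was called at an adjusted p under 0.05, which 22.0% of all clusters met, and 10.5% were called as lower. All differences are Nfix-/- minus Nfix+/+. Read this way, the called clusters that also changed by more than 1.5-fold numbered 1351, the same total as the study states. They split into 522 higher and 829 lower, a balance opposite to the one the study states at that cut-off. The study's counts of upregulated and downregulated genes are nearly these same counts with the directions exchanged. The reason was not tested. With no fold cut-off 7602 were higher and 6918 lower, and lower ones were the majority after cyclic loess (6603 higher, 6782 lower) and with some single arrays left out. The values of both groups did not overlap in 28.1% of clusters. A background cut was set on each array at the 95th percentile of its negative-control probe sets, and the 11778 clusters over that cut on at least 4 arrays are called bright. The median difference was 0.02 over all clusters and 0.09 over bright ones. Of the bright clusters 1661 were called as higher and 49 as lower, so most of the lower calls fell on clusters that were not bright. Of the marker genes, 10 of 10 of neurons and 7 of 10 of neural progenitors were bright, as were 11778 of all 65956 clusters. So were 4 of 7 genes of astrocytes, 3 of 6 of the oligodendrocyte lineage and 4 of 7 of endothelium. The same held for 5 of 5 genes of sensory ganglia, 5 of 7 of meninges and fibroblasts and 2 of 7 of microglia and macrophages. For red blood cells it was 2 of 5 and for skeletal muscle 1 of 6.

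The arrays were not alike in background. The median of the negative controls was 4.34, 4.40, 4.36 and 4.60 in Nfix-/- replicates 1 to 4, and 4.37, 4.88, 4.33 and 4.49 in Nfix+/+ replicates 1 to 4. The highest were thus Nfix-/- replicate 4 and Nfix+/+ replicate 2, and these medians did not differ between genotypes past the test (two-sided exact permutation test, p = 0.629, n = 4 each). The median of the positive controls did, at 8.74, 8.73, 8.73 and 8.72 in Nfix-/- replicates 1 to 4 and 8.63, 8.60, 8.68 and 8.63 in Nfix+/+ replicates 1 to 4, so that all Nfix-/- arrays lay above all Nfix+/+ arrays (p = 0.0286 by the same exact permutation test, which is its lowest possible p at 4 against 4). The part of either control signal in the values below was not tested, apart from the covariate fit on the negative controls.

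The start regions of *Malat1*, *Miat* and *Snhg11* are shown because NFI proteins are known to bind the bases TTGGC, alone or as a palindrome with GCCAA after 5 bases. They are 300-base stretches of GRCm38.p6 from RefSeq, 250 bases before the start and 50 after it, in the direction of transcription, and capitals mark TTGGC or its reverse complement GCCAA. They lie at chr19:5802623-5802922 (minus strand), chr5:112228899-112229198 (minus strand) and chr2:158375463-158375762 (plus strand).
Malat1: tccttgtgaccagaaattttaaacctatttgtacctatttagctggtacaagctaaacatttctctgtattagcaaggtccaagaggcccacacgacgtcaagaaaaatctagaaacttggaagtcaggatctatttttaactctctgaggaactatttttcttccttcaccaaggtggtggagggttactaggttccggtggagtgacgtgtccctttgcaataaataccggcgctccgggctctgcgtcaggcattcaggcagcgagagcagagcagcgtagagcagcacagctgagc
Miat: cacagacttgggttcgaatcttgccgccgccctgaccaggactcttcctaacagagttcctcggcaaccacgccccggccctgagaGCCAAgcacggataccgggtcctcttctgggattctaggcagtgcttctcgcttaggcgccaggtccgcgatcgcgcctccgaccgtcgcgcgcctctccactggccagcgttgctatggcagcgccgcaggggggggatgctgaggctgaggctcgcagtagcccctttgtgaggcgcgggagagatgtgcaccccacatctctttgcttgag
Snhg11: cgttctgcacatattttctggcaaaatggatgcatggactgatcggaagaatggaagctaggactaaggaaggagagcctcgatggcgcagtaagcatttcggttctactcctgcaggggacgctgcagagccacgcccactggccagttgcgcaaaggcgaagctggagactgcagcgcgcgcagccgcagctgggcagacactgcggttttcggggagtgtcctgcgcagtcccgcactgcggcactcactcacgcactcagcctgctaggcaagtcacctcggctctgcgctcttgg
*Miat* held 1 such match, at -164 from the start, and *Malat1* and *Snhg11* held 0. Of 32851 start regions in the table, 46.7% held at least 1 match on either strand and 0.0365% the full palindrome, which none of these 3 held. A match is only a run of letters, and its absence says nothing of binding.

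*Malat1* did not differ between genotypes past the test. It lies on chromosome 19 of GRCm38.p6 from 5795690 to 5802672. Its log2 signal was 11.46, 11.52, 11.50 and 11.93 in Nfix-/- replicates 1 to 4 and 11.39, 12.12, 11.31 and 11.62 in Nfix+/+ replicates 1 to 4. The groups overlapped over most of their range, and the highest values were those of Nfix-/- replicate 4 and Nfix+/+ replicate 2. The log2 difference was -0.01 (standard error 0.183, adjusted p = 0.981 from limma), with a 95% interval in fold of 0.744 to 1.33.

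*Miat*, on chromosome 5 from 112213228 to 112228948, had signals of 8.42, 8.39, 8.27 and 8.49 in Nfix-/- and of 8.27, 8.91, 8.33 and 8.61 in Nfix+/+. The Nfix-/- values lay within the lower part of the Nfix+/+ range. The log2 difference was -0.14 (standard error 0.135, adjusted p = 0.514 from limma), with an interval in fold of 0.735 to 1.13. Its nearest protein-coding gene, *Cryba4*, which encodes a lens crystallin, had a difference of 0.10 (adjusted p = 0.372). Of 5 measured genes within 100 kb of *Miat*, 1 was called, the noncoding *1700028D13Rik*, at -0.20 (adjusted p = 0.0249), and its 8 arrays were all under the background cut.

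*Snhg11*, on chromosome 2 from 158375713 to 158386474, had signals of 9.13, 9.19, 8.95 and 9.36 in Nfix-/- and of 9.06, 9.54, 8.98 and 9.27 in Nfix+/+. The groups overlapped almost fully, and the log2 difference was -0.06 (standard error 0.134, adjusted p = 0.805 from limma), with an interval in fold of 0.779 to 1.19. The small nucleolar RNA gene *Gm25129*, which lies within *Snhg11*, was measured by a cluster of its own, at 7.35, 7.29, 7.33 and 7.12 in Nfix-/- and 7.11, 7.30, 7.03 and 7.10 in Nfix+/+. Its highest array in Nfix-/- was replicate 1 and its lowest replicate 4, where *Snhg11* was highest. In Nfix+/+ both were highest in replicate 2. The *Gm25129* difference of 0.14 was not called (adjusted p = 0.221 from limma). Nor was that of *Ralgapb*, the nearest measured protein-coding gene, at 0.07 (adjusted p = 0.311).

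*Rmst*, on chromosome 10 from 92081746 to 92165178, had signals of 8.09, 8.07, 8.04 and 8.52 in Nfix-/- and of 8.12, 8.60, 8.03 and 8.22 in Nfix+/+. Apart from 1 high array in each genotype, the other 6 arrays lay between 8.03 and 8.22. The log2 difference was -0.06 (standard error 0.146, adjusted p = 0.798 from limma), with an interval in fold of 0.760 to 1.21. *Sox2*, which encodes the protein that human RMST binds, had a difference of 0.12 (standard error 0.0778, adjusted p = 0.295).

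The region of *Rmst* also holds microRNA genes, *Mir1251* within it and *Mir135a-2* at 9561 bases from it, both on the minus strand of chromosome 10. Their 5p products are shown as RefSeq gives them, with the seed, bases 2 to 8, in capitals, since the seed sets which transcripts a microRNA pairs with. The seeds differ.
mmu-miR-135a-5p: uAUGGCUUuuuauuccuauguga
mmu-miR-1251-5p: aCUCUAGCugccaaaggcgcu
The cluster of *Mir135a-2* gave 2.29, 2.62, 2.48 and 2.99 in Nfix-/- and 2.38, 2.43, 2.27 and 2.40 in Nfix+/+. That of *Mir1251* gave 4.84, 4.85, 5.04 and 5.15 in Nfix-/- and 4.95, 5.22, 4.85 and 4.62 in Nfix+/+. Both lay under the background cut throughout, and neither was called (adjusted p = 0.261 and 0.764 from limma).

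*Neat1* was the only one of the 6 genes that was called, as lower in Nfix-/-. It lies on chromosome 19 from 5824708 to 5845480, at 22036 bases from *Malat1*. Its signals were 5.61, 5.52, 5.61 and 5.58 in Nfix-/- and 5.72, 5.81, 5.68 and 5.73 in Nfix+/+. Every Nfix-/- array lay below every Nfix+/+ array. The log2 difference was -0.15 (standard error 0.0468, adjusted p = 0.0478 from limma), a fold of 0.899 with an interval of 0.835 to 0.968. This is 1 of the 4 genes taken by 1 symbol, and 1 of the 6, against the shares of 22.0%, 10.5% and 28.1% over all clusters given above. No member met the study's fold cut-off of 1.5 as well, which 2.05% of clusters did.

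The *Neat1* call lay close to its threshold and to background. *Neat1* passed the background cut on 0 of 8 arrays, while its means, 5.58 ± 0.0411 in Nfix-/- and 5.73 ± 0.0536 in Nfix+/+ (SD, n = 4 each), were above the medians of the negative controls. The call was lost when any 1 of the 8 arrays was left out, with differences of -0.17 to -0.13 and adjusted p of 0.0640 to 0.122 (limma), and after median scaling (-0.13, adjusted p = 0.115) and quantile normalization (-0.14, adjusted p = 0.0573). After cyclic loess it was kept at -0.16 (adjusted p = 0.0473). *Frmd8*, the nearest protein-coding gene at 5494 bases, had a difference of 0.06 (adjusted p = 0.445). Limma called 0 of 9 measured genes within 100 kb of *Neat1*, with 0 at an unadjusted p under 0.05. An unpaired test on each cluster's own variance, called the plain test below, also called 0. Within 100 kb of *Malat1*, besides *Neat1*, 1 was called, *Map3k11*, a kinase of stress signalling, at 0.30 (adjusted p = 0.0276).

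Transcripts for proteins of the bodies that *Neat1* and *Malat1* RNA belong to were also measured. Of 10 measured genes of paraspeckle proteins and 9 of nuclear speckle proteins, limma called 0 and 0, and all 19 were bright. At an unadjusted p under 0.05 there were 2 and 2, and the plain test called 2 and 0. Among the first, *Nono* had a difference of 0.16 (adjusted p = 0.162), *Hnrnpk* 0.11 (adjusted p = 0.102) and *Dazap1* 0.12 (adjusted p = 0.0829). Among the second, *Srsf3* had 0.16 (adjusted p = 0.0908), *Srsf1* 0.13 (adjusted p = 0.115) and *Srrm1* 0.11 (adjusted p = 0.165). The medians of these lists were 0.05 and -0.02, beside 0.09 over all bright clusters. Of 7 genes for proteins tied to the members in earlier work, *Nr3c1*, the glucocorticoid receptor, was called at 0.18 (adjusted p = 0.0275) while lying under the background cut on all arrays. *Upf1*, an RNA helicase of transcript decay, had 0.12 (adjusted p = 0.0858).

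*Pantr1*, on chromosome 1 from 42648200 to 42694825, had signals of 6.25, 6.26, 6.19 and 6.26 in Nfix-/- and of 6.31, 6.22, 6.37 and 6.21 in Nfix+/+. The Nfix-/- arrays lay close together, and 2 Nfix+/+ arrays lay above all of them. The log2 difference was -0.04 (standard error 0.0513, adjusted p = 0.604 from limma), with an interval in fold of 0.896 to 1.05, the narrowest of the 5 genes that were not called. *Pantr1* passed the background cut on 0 arrays. *Pou3f3*, at 943 bases, shared its cluster with another gene and is not described, while *Pantr2*, which lies beyond it, had a difference of 0.04 (adjusted p = 0.652).

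**Figure D1:**
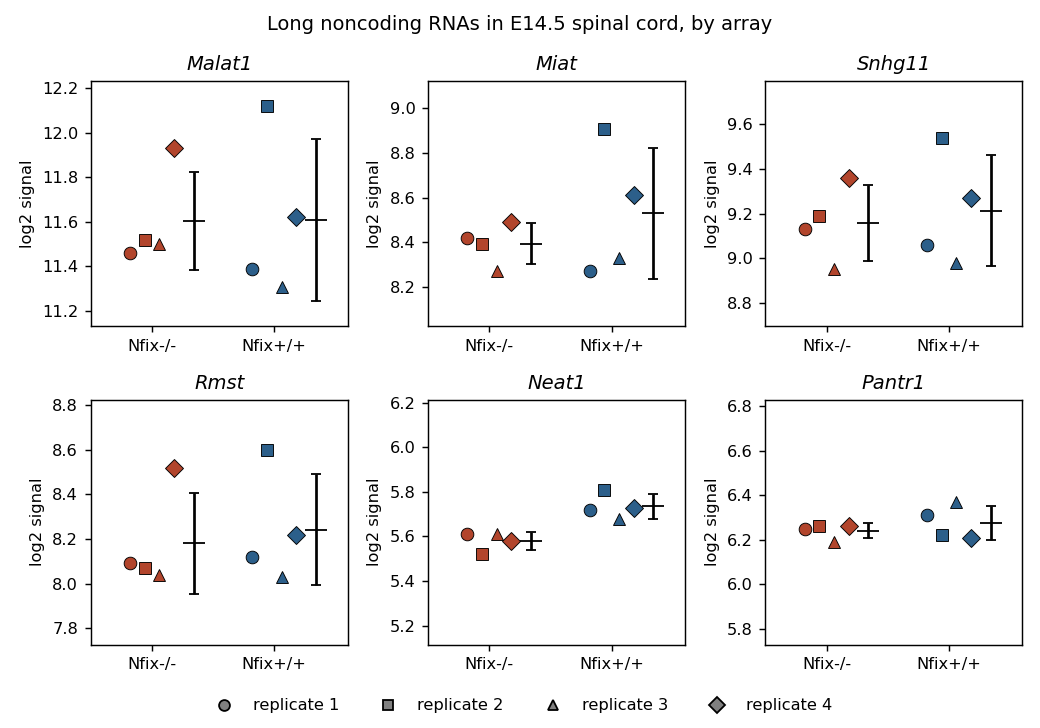
Log2 signal (vertical axis, every panel spanning the same range of log2 units) of 6 long noncoding RNAs in Nfix-/- (left) and Nfix+/+ (right) spinal cord. Symbols are single arrays by replicate number and the bars give mean and SD (n = 4 each); *Malat1*, *Miat*, *Snhg11* and *Rmst* were highest in replicate 4 of Nfix-/- and replicate 2 of Nfix+/+, and only the *Neat1* groups do not overlap.

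The 4 brighter genes varied together from array to array. In each genotype *Malat1*, *Miat*, *Snhg11* and *Rmst* were highest in the array of highest negative-control median, which was also so for 26.4% of bright clusters and 18.4% of all clusters. Nfix-/- replicate 4 lay above the mean of the other Nfix-/- arrays by 0.43 for *Malat1*, 0.14 for *Miat*, 0.28 for *Snhg11* and 0.45 for *Rmst*. Nfix+/+ replicate 2 lay above the mean of the other Nfix+/+ arrays by 0.68 for *Malat1*, 0.51 for *Miat*, 0.44 for *Snhg11* and 0.47 for *Rmst*. Each of these shifts was larger than the genotype difference of the same gene, except that of *Miat* in Nfix-/- replicate 4, which was about as large. *Neat1* and *Pantr1* did not share the pattern, with shifts of 0.0037 and 0.03 in Nfix-/- replicate 4 and of 0.10 and -0.07 in Nfix+/+ replicate 2.

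Against other clusters these shifts were on the high side. The shift of *Malat1* lay at percentile 94.1 of bright clusters in Nfix-/- replicate 4 and at percentile 96.8 in Nfix+/+ replicate 2. The spread within genotypes lay at percentile 95.1 for *Malat1*, 92.4 for *Rmst*, 90.7 for *Miat* and 90.6 for *Snhg11*. For *Neat1* and *Pantr1* it lay at percentiles 23.0 and 35.6. 
With the negative-control median of each array as a covariate, an alternative added after the pattern was seen, the standard errors of the 4 genes were smaller and no further member was called. *Malat1* then stood at 0.13 (standard error 0.0466, adjusted p = 0.0594 from limma), *Miat* -0.04, *Snhg11* 0.04 and *Rmst* 0.04. *Neat1* stayed called at -0.14 (adjusted p = 0.0432). Without Nfix-/- replicate 4 and Nfix+/+ replicate 2 together, *Malat1* had 0.05 (adjusted p = 0.678) and *Neat1* -0.13, no longer called (adjusted p = 0.109). The sign for *Malat1*, *Snhg11* and *Rmst* was thus not settled by these data.

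**Figure D2:**
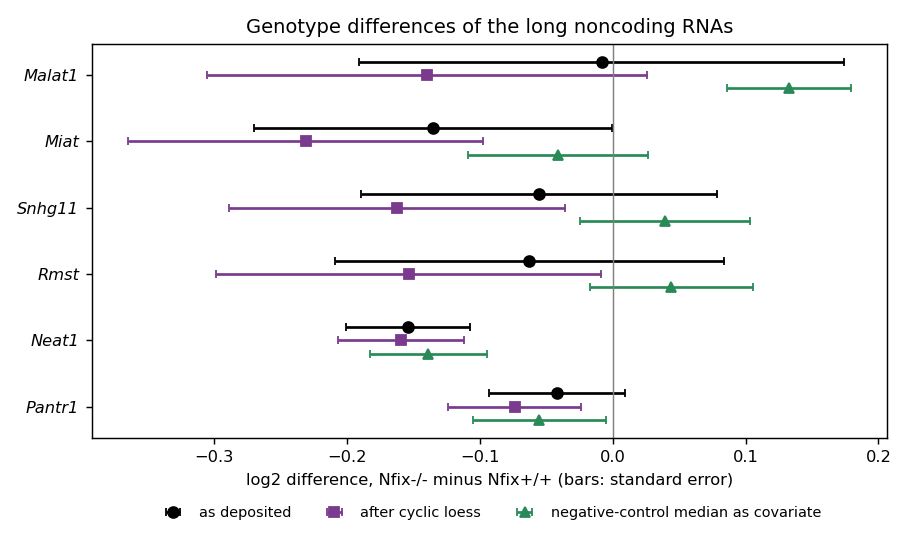
Log2 difference, Nfix-/- minus Nfix+/+ (horizontal axis), of 6 long noncoding RNAs as deposited (circles), after cyclic loess (squares) and with the negative-control median as a covariate (triangles), with bars of 1 standard error. *Malat1* had -0.01, -0.14 and 0.13 in these settings, while *Neat1* lay between -0.16 and -0.14.

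Other long noncoding RNAs were read from lists of genes of the same kind. Of 19 host genes of small nucleolar RNAs, 8 had a row of their own, and their median difference was 0.09. Limma called 0 of them, with 0 at an unadjusted p under 0.05 and 0 in the plain test. The lowest p among them belonged to *Snhg9* (0.23, adjusted p = 0.233), *Snhg5* (0.24, adjusted p = 0.241) and *Snhg6* (0.09, adjusted p = 0.267). Of 38 neural and nuclear long noncoding RNAs, 25 had a row of their own, 3 were called as higher, 2 as lower and 20 were not called, with a median of 0.04. The 5 called of these 33 genes stood against the 22.0% of all clusters.

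All 5 called genes lay under the background cut on every array. *Nkx2-2os*, transcribed opposite the progenitor gene *Nkx2-2*, had 4.08, 3.95, 4.17 and 4.05 in Nfix-/- and 4.51, 4.42, 4.52 and 4.49 in Nfix+/+, the difference being -0.42 (standard error 0.0572, adjusted p = 0.00211 from limma). *Crnde*, which lies on chromosome 8 at 7.52 Mb from *Nfix*, had 6.24, 6.02, 6.12 and 6.05 in Nfix-/- and 6.48, 6.51, 6.44 and 6.45 in Nfix+/+, the difference being -0.36 (standard error 0.0570, adjusted p = 0.00385). In both genes every Nfix-/- array lay below every Nfix+/+ array. *Otx2os1*, opposite *Otx2*, was higher by 0.30 (adjusted p = 0.00604) and *Dlx1as*, opposite *Dlx1*, by 0.35 (adjusted p = 0.0103). These 4 genes kept their call after median scaling, quantile normalization and cyclic loess and without any 1 array.

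*Hotair*, transcribed within the *HoxC* cluster, had 5.45, 4.68, 4.96 and 4.81 in Nfix-/- and 4.33, 4.28, 4.51 and 4.51 in Nfix+/+, the difference being 0.57 (standard error 0.156, adjusted p = 0.0334 from limma). Its highest array was Nfix-/- replicate 1. The call was lost without Nfix-/- replicate 3 and without each of the Nfix+/+ arrays in turn, and in the plain test. It was also lost with the replicate block, and when Nfix-/- replicate 4 and Nfix+/+ replicate 2 were both dropped.

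Among the brighter genes, *Norad*, a long noncoding RNA that binds Pumilio proteins in the cytoplasm, had 10.10, 10.14, 10.13 and 10.11 in Nfix-/- and 10.03, 10.01, 9.95 and 9.96 in Nfix+/+. The groups did not overlap, but the difference, 0.13 with a standard error of 0.0412, fell at an adjusted p of 0.0505 (limma) just outside the threshold. It was called in the plain test, with a trend and robust prior, with array weights and with the negative-control covariate. It was also called when only bright clusters or only clusters of 1 gene were tested. The call was absent with each rescaling of the arrays (cyclic loess, quantile, median), with the replicate block and with the mean over rows. It was also absent with any 1 array left out, and when Nfix-/- replicate 4 and Nfix+/+ replicate 2 were both dropped. Over all bright clusters the median difference was 0.09. *Peg13*, an imprinted noncoding RNA of the brain, had 0.24 (adjusted p = 0.0806), *Tug1* 0.09 (adjusted p = 0.224) and *Oip5os1*, known as Cyrano, 0.12 (adjusted p = 0.207).

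**Figure D3:**
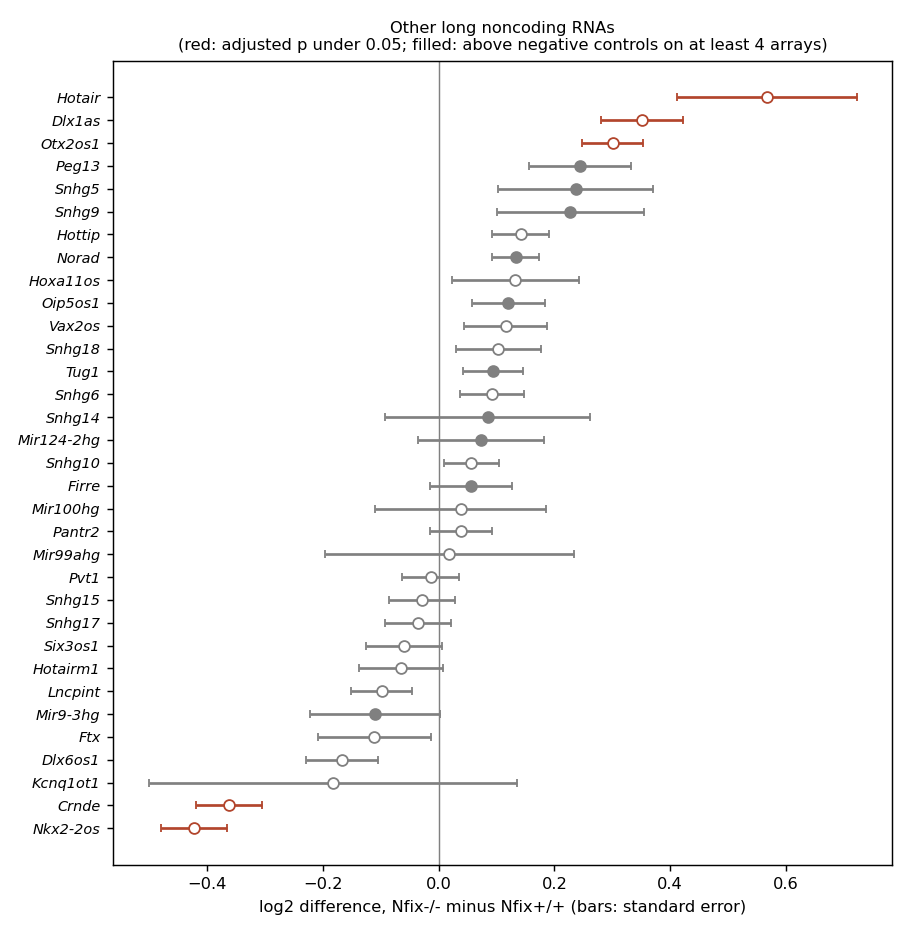
Log2 difference, Nfix-/- minus Nfix+/+ (horizontal axis), with bars of 1 standard error, of 33 further long noncoding RNAs. Red marks the 5 genes called at an adjusted p under 0.05 and filled circles the 10 bright genes (over the background cut on at least 4 arrays); none is both.

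The array pattern of *Malat1* was also seen in some of these genes. In Nfix-/- replicate 4 and Nfix+/+ replicate 2 the shifts were 0.78 and 1.15 for *Kcnq1ot1*, the imprinted transcript antisense to *Kcnq1*, and 0.55 and 0.77 for *Mir99ahg*. They were 0.43 and 0.65 for *Snhg14*, the transcript antisense to *Ube3a*, and 0.20 and 0.61 for *Mir100hg*. *Kcnq1ot1* and *Mir99ahg* passed the background cut on 0 arrays, *Mir100hg* on 2 and *Snhg14* on 4. *Norad*, by contrast, had -0.02 and 0.03, *Tug1* 0.13 and 0.01 and *Peg13* -0.21 and -0.12. In all 8 of the 33 genes, of which 10 were bright, were highest in both of these arrays. That is a share of 24.2%, beside 18.4% of all clusters and 26.4% of bright clusters. The same held for 6 of 10 paraspeckle and 6 of 9 nuclear speckle protein genes, with *Cpsf6* at 0.31 and 0.36 and *Son* at 0.19 and 0.34. It held for 1 of 10 genes of neurons and 2 of 10 of neural progenitors.

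With the negative-control median as a covariate 10 of the 33 genes were called, 7 higher and 3 lower, among them *Norad*, *Snhg14*, *Mir99ahg* and *Snhg5*, so the count depended on how the difference between arrays was treated.

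**Figure D4:**
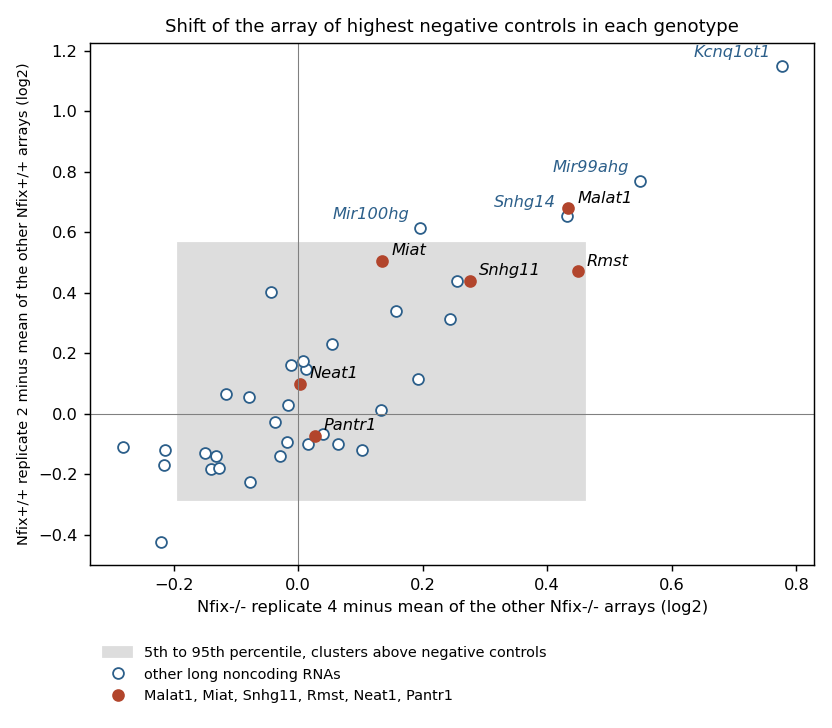
Shift of Nfix-/- replicate 4 from the mean of the other Nfix-/- arrays (horizontal axis, log2) and of Nfix+/+ replicate 2 from that of the other Nfix+/+ arrays (vertical axis, log2), for 6 long noncoding RNAs (filled) and 33 others (open). The grey area spans the 5th to 95th percentile of bright clusters, -0.19 to 0.46 and -0.29 to 0.56. *Malat1*, *Kcnq1ot1*, *Mir99ahg*, *Snhg14* and *Mir100hg* lie above it, and of these only *Malat1* and *Snhg14* are bright.

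Markers of the cell types a cord can hold were measured beside these genes. Over all 65956 clusters 7602 were called as higher and 6918 as lower, and over the 11778 bright ones 1661 and 49. Of 7 genes of meninges and fibroblasts 4 were called as higher in Nfix-/-, with list means of 8.43 to 8.59 in Nfix-/- and 8.26 to 8.34 in Nfix+/+, and of 7 endothelial genes 3 were, with list means of 7.98 to 8.14 in Nfix-/- and 7.84 to 7.96 in Nfix+/+. Of 7 genes of microglia and macrophages 1 was called as higher, *C1qc*, and 2 were bright. *C1qc*, *Aif1*, *Cx3cr1* and *Tyrobp* passed the background cut on 0 arrays, while *Csf1r* and *C1qb* passed it on 7 arrays each. Of 5 genes of sensory ganglia 1 was called as higher, and the list mean ran from 8.59 to 8.75 in Nfix-/- and from 7.98 to 8.60 in Nfix+/+. Of 6 skeletal muscle genes 3 were higher by limma and 0 in the plain test. Of 5 red blood cell genes limma called 0, with 0 at an unadjusted p under 0.05 and 0 in the plain test. Of 10 genes of neurons 3 were higher, with list means of 10.59 to 10.66 in Nfix-/- and 10.46 to 10.52 in Nfix+/+. The median difference of the neuron list was 0.11, close to the 0.09 over all bright clusters. Of 10 genes of neural progenitors 1 was called, *Hes5*, a target of Notch signalling, which was lower at -0.46 (adjusted p = 0.00322), with list means of 8.41 to 8.52 in Nfix-/- and 8.43 to 8.49 in Nfix+/+. Of 6 genes of the oligodendrocyte lineage 2 were higher, *Ugt8a* and *Bcas1*, which passed the background cut on 0 arrays. The bright *Olig2* had -0.25 and was not called (adjusted p = 0.0626 from limma). Of 7 genes of astrocytes 1 was higher. The part of these lists in the value of *Neat1* was not tested.

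The profile of *Neat1* over the 8 arrays was nearest to that of *Mir6998*, with a root mean square distance of 0.0270 log2 units after each profile was centred, and of *Gm9257*, with 0.0353, among 8918 bright genes. *Mir6998* had 8.14, 8.05, 8.13 and 8.05 in Nfix-/- and 8.26, 8.29, 8.17 and 8.23 in Nfix+/+, and like *Gm9257* it was not itself called (adjusted p = 0.0572 and 0.0816 from limma).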

How the data were processed

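Per the study's methods, the authors summarised the scanner files of all arrays at gene level by SST-RMA (Affymetrix software) with mm10 as the genome version, and the deposited values are log2 signals per transcript cluster. They were used unchanged, with no filter, and control probe sets were left out of the tests. RMA corrects background and makes the arrays' distributions alike, so a change shared by most clusters is reduced, and no count or depth exists for an array. That 4 arrays a group were measured limits the precision.

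Clusters were named from the platform annotation where all names belonged to 1 gene in RefSeq (GRCm38.p6): 30646 had 1 symbol, 646 several names of 1 gene, 1522 names of several genes (not named here) and 33142 none. A gene with several clusters was represented by that of highest mean.

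Genotypes were compared over 65956 clusters by a linear model with moderated variances (limma 3.58.1, R 4.3.3), with no block and p-values adjusted by Benjamini-Hochberg over all clusters. The fit was checked on simulated data. The plain test (unpaired, without moderation), other priors and scalings, filters, the replicate block and each array left out were alternatives. The study states an unpaired ANOVA with false discovery rate correction and does not say whether variances were moderated. The plain test is thus not known to be the one it used. Named were all members, genes near them that were called or nearest, 3 genes of lowest p in each list of noncoding RNAs or of proteins tied to the members, and the 2 profiles nearest to a called member. Further genes named (*Tug1*, *Oip5os1*, *Peg13*, *Norad*, *Pantr2*, *Dlx1as*, *Hotair*, *Gm25129*, *Hes5*, *Aif1*, *Cx3cr1*, *Tyrobp*, *C1qc*, *Csf1r*, *C1qb*, *Olig2*, *Ugt8a*, *Bcas1*, the *Rmst* microRNAs and those with the array pattern) were chosen after their values were seen. Members and lists were chosen with earlier results of these data known. Replicates are called biological in the labels, but whether each array is 1 embryo is not given in the sources used here, and the study's text gives another number of animals than the labels.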

Additional observations from a re-analysis of the deposited data

Results flagged for a closer look

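In the Nfix-/- group 1 array stood far from the other 3 for *Malat1* and for *Rmst*. For *Malat1* Nfix-/- replicate 4 was at 11.93, against 11.46 to 11.52 in the others, and the gap to its nearest neighbour was 0.860 of the group's range. For *Rmst* the same array was at 8.52, against 8.04 to 8.09, and the gap was 0.896 of the range. These were 2 of 16 groups examined, where chance gives about 1 in 20. The same array had the highest negative-control median of its genotype, 4.60, and the part of background in these values was not tested.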

How the results depend on the processing

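Of the 4 genes taken by 1 symbol, 1 (*Neat1*) was called as deposited. None (0) was with trend and robust prior (*Neat1* adjusted p = 0.0628 from limma), median scaling, quantile normalization, the added fold cut-off of 1.5, both arrays of highest negative-control median left out, and only clusters over the background cut, where *Neat1* was not tested. With any 1 array left out the count was 0 to 0. The plain test, array weights, cyclic loess, clusters of 1 gene, the mean over rows and the negative-control covariate kept 1. The difference of *Malat1* changed sign to 0.0523 with array weights, 0.0204 with median scaling, 0.133 with the covariate and 0.0529 without both arrays, and was -0.12 to 0.16 with 1 array left out. That of *Snhg11* became 0.0395 with the covariate and -0.13 to 0.0546 with 1 array left out, and that of *Rmst* 0.0440 and -0.17 to 0.0553. None of these was called.

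Of the 33 other long noncoding RNAs, 5 were called as deposited and 0 with the fold cut-off. With the covariate 10 were called, and with 1 array left out 4 to 6. When only clusters over the background cut were tested, 1 of 10 was called, *Norad*, which was not among the 5. Deviations of same-numbered arrays from their group means correlated at 0.47, -0.15, 0.04 and -0.08, so the numbers were not taken as pairs. With the replicate block 0 of the 4 genes were called (*Neat1* adjusted p = 0.120) and 4 of the 33. The causes were not tested. Over all clusters 14520 were called as deposited, 11235 with the block (5439 higher, 5796 lower) and 21396 with the covariate. The mean over rows could not alter the members, with 1 row each. Signal over background limits *Neat1* and *Pantr1*.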
